A study of Mus musculus and Homo sapiens with 22 samples.

Results

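Small nuclear RNA (snRNA) genes of the major spliceosome, with 7SK, were followed in tau aggregates sorted from HEK293 cells. The genes were those typed snRNA in the human table of the 24 h experiment, without the 4 genes of the minor spliceosome (RNU11, RNU12, RNU4ATAC and RNU6ATAC). This gave 74 of the 23737 genes in the table, and no measured value was used to choose them. By name they were 18 U1, 2 U2, 2 U4, 5 U5, 45 U6 and 1 U7 gene and RN7SK, and 44 of the 74 names carry the P of a pseudogene.

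The human cells were HEK293, a line from embryonic kidney. They expressed CFP and YFP fusions of the tau repeat domain bearing the P301S mutation (genotype HEK293 Tau-RD-P301S-CFP/YFP). All 4 libraries compared here came from dishes given 200 ug of clarified brain homogenate from P301S mice with Lipofectamine and kept for 24 h, 1 dish per replicate. Total RNA was sequenced from 2 replicates, and RNA of aggregates, enriched by centrifugation and then sorted as fluorescent particles, from 2. Ribosomal RNA was depleted with the KAPA RNA HyperPrep Kit with RiboErase. Mouse brain RNA came from rTg4510 mice, in which a Camk2a-tTA driver turns on human tau with the P301L change and which also carry a tet-dependent tdTomato-Syp/EGFP allele, and from rTg21221 mice, in which Camk2a-tTA drives wild-type (WT) human tau without that reporter. From each genotype came total RNA, RNA of the 1% sarkosyl-insoluble fraction, and RNA that the tau-12 antibody pulled down from that fraction (immunoprecipitate), with 2 libraries in each of the 6 groups. The 2 genotypes thus differ in the reporter as well as in tau, and the labels give no age. The rTg4510 immunoprecipitates are titled P301S, against a strain label of P301L, which was followed. The labels do not say whether libraries of different fractions share a mouse. The other 6 of the 22 samples were HEK293 cells at 96 h, for which splicing and intron tables that hold no snRNA gene were given. They were not used here.

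Splicing removes introns from pre-mRNA with 5 RNA-protein particles, each built on 1 snRNA. U1 pairs with the 5′ splice site and U2 with the branch point. U4 arrives base-paired to U6 in a tri-particle with U5 and leaves when U6 is freed to form the catalytic centre, while U5 holds the exon ends. U7 acts in the 3′ end formation of histone mRNAs and not in splicing. 7SK is not a splicing RNA: it holds the elongation kinase P-TEFb inactive. Spliceosomal particles are stored and matured in nuclear speckles and Cajal bodies.

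The depth on genes was 13.7 M and 13.8 M reads for total RNA and 1.19 M and 0.879 M for aggregates. Values are FPKM (reads scaled to transcript length and to library depth), and on genes this short a handful of reads gives a high FPKM: on a gene of 141 bases 3 reads amounted to 24.2 FPKM in aggregate replicate 2 and to 1.55 FPKM in total replicate 1. Reads were therefore recovered from the FPKM steps and are given beside them. Of the HEK293 markers, 6 of 6 were present, summed to 340 to 347 FPKM in total RNA and 225 to 242 FPKM in aggregates. The 7 markers of leukocytes, hepatocytes and glia summed to 0.581 to 1.23 FPKM in all 4 libraries, with CD3E at 0 throughout and PTPRC, ALB, APOA1 and GFAP at 0 in both aggregate libraries. In bulk samples of this kind, fewer particles that hold an RNA and less of it per particle cannot be told apart.

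Of the 74 genes, 31 had at least 1 read in any library and 43 were listed at 0 in all 4. The genes at 0 included RNU1-1, RNU1-2, RNU1-3 and RNU1-4, the standard U1 copies, the U6 genes RNU6-1, RNU6-2, RNU6-7, RNU6-8 and RNU6-9, and RNU7-1. These are genes that every cell uses, so they are described only as listed at 0. How reads that match several copies were treated is not given in the sources used here, and the value of any single copy is uncertain for that reason. A gene was tested where it had at least 10 expected reads in the shallowest library (its mean share of reads over the 4 libraries times that library's depth), which a gene can reach through its higher group alone. This left 6 genes, RN7SK, RNU2-2P, RNVU1-14, RNVU1-15, RNU4-1 and RNU4-2, and 25 genes with reads that were not tested. The lowest tested gene had 16.5 expected reads and the highest untested one, RNU5E-1, had 6.30.

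Both U4 genes and 2 variant U1 genes were higher in aggregates, by 3.42-fold to 5.59-fold. 7SK and the tested U2 gene, RNU2-2P, did not pass the test. Of the 6 genes tested, 4 passed a Benjamini-Hochberg adjusted p of 0.05 in limma and were higher, and 0 were lower (0 at an unadjusted p under 0.05, and 0 with voom on the recovered reads). RNU4-1 and RNVU1-15 reached the read filter only through the aggregates, since total RNA alone gives them 7.22 and 6.62 expected reads, while RNU5D-1, with 7.04 from total RNA and few reads in aggregates, stayed out. The filter thus lets a gene of this level in when it is higher in aggregates and not when it is lower, and these counts are no summary of the 74 genes. Among all 10209 genes tested 52.3% passed, 26.3% higher and 26% lower. In 5 of the 6 the 2 aggregate libraries lay above both total libraries, as did 41.1% of all genes tested.

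**Figure D1:**
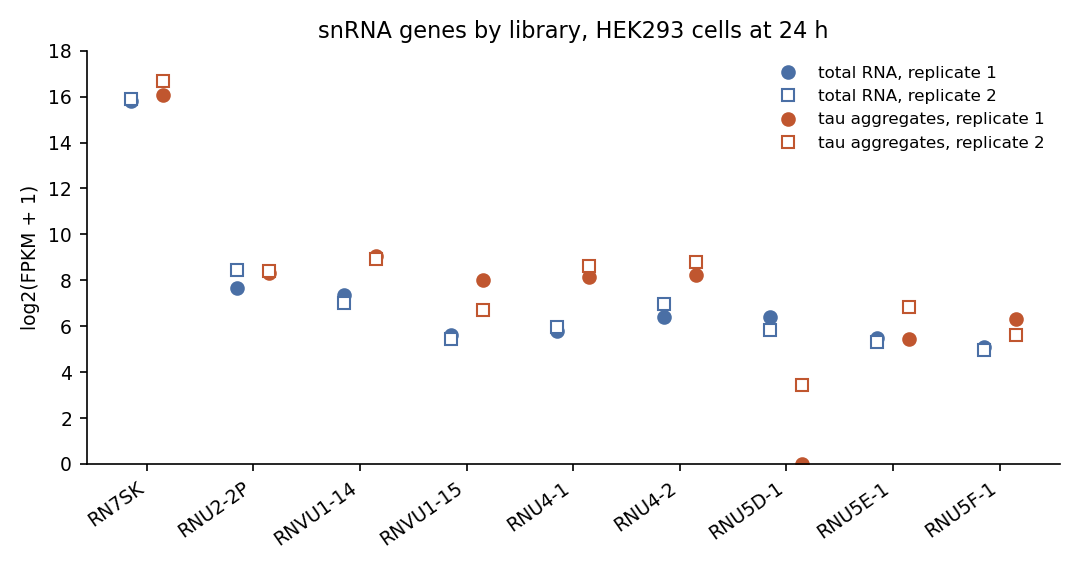
Level of 9 snRNA genes as log2(FPKM + 1) in the 2 total RNA libraries (blue) and the 2 tau aggregate libraries (orange), with replicate 1 as filled circles and replicate 2 as open squares. The orange points of RNVU1-14, RNVU1-15, RNU4-1 and RNU4-2 lie above the blue ones, those of RNU2-2P lie among them, and RNU5D-1 is at 0 in aggregate replicate 1.

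RNU4-1, a U4 gene, stood at 54.9 and 61.7 FPKM in total RNA (106 and 120 reads) and at 280.5 and 387 FPKM in aggregates (47 and 48 reads). The aggregate libraries did not overlap the total libraries, and the difference was 2.48 ± 0.18 (log2, SE, n = 2 per group; limma adjusted p = 0.00181). RNU4-2, the other U4 gene, stood at 82.4 and 124 FPKM in total RNA (159 and 242 reads) and at 298 and 444 FPKM in aggregates (50 and 55 reads). Both aggregate libraries were again the higher ones, with a difference of 1.84 ± 0.28 (log2, SE, n = 2; limma adjusted p = 0.00645).

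RNVU1-14 is a variant U1 gene. It gave 165 and 129.9 FPKM in total RNA (371 and 294 reads) and 528 and 479 FPKM in aggregates (103 and 69 reads). The groups were apart by 1.77 ± 0.15 (log2, SE, n = 2; limma adjusted p = 0.00219). RNVU1-15, another variant U1 gene, gave 48.7 and 42.6 FPKM in total RNA (110 and 97 reads) and 260.1 and 103 FPKM in aggregates (51 and 15 reads). Its 2 aggregate libraries differed 2.51-fold from each other, and the difference between groups was 1.83 ± 0.44 (log2, SE, n = 2; limma adjusted p = 0.0228). RNVU1-15 rested on aggregate replicate 1: without that library it fell under the read filter and was not tested, and with no read filter its adjusted p was 0.0985.

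RNU2-2P, a U2 gene despite the P in its symbol, gave 204 and 351 FPKM in total RNA (533 and 925 reads) and 322 and 339.6 FPKM in aggregates (73 and 57 reads). Both aggregate values lay between the 2 total values, and the difference of 0.30 ± 0.27 (log2, SE, n = 2) did not pass the test (limma adjusted p = 0.377). RNU2-1, the standard U2 gene, had 5, 2, 2 and 1 reads in the same order of libraries and was not tested.

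RN7SK, the gene of 7SK RNA, held nearly all snRNA reads. It stood at 58097 and 60596 FPKM in total RNA and at 69696 and 104979 FPKM in aggregates, which is 1.91% and 1.99% of all reads in total RNA and 2.29% and 3.44% in aggregates. The aggregate libraries were both higher than the total ones but differed from each other by more than the lower of them differed from total RNA. The difference of 0.53 ± 0.58 (log2, SE, n = 2) did not pass the test (limma adjusted p = 0.474). Of the reads on all 74 genes, 99.3% in both total libraries and 98.6% and 99.0% in the aggregate libraries were on RN7SK, so a sum over the whole class is a value of 7SK.

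Without RN7SK, the 73 U snRNA genes took 128 and 149 RPM (reads per M reads of the library) in total RNA and 316 and 332 RPM in aggregates. The ratio of pooled read rates was 2.34 (exact 95% interval 2.15 to 2.54). Such intervals cover counting error only, not the spread between dishes. Because single copies of a family are nearly identical, the members of each family were also summed and the sums tested in place of the copies, in a table where 52.3% of 10208 rows passed. Of 5 sums tested, U1 and U4 were higher in aggregates and 7SK, U2 and U5 did not pass.

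**Figure D2:**
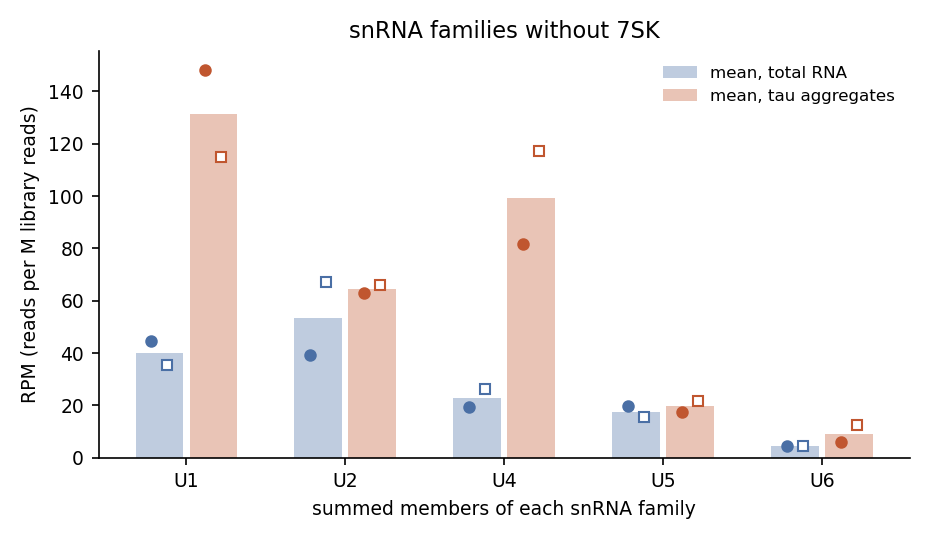
RPM summed over the members of the U1, U2, U4, U5 and U6 families in total RNA (blue) and tau aggregates (orange). Bars are means of 2 libraries, filled circles are replicate 1 and open squares replicate 2. The aggregate points lie above the total points for U1, U4 and U6 and the groups overlap for U2 and U5.

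The U4 sum was 137 and 186 FPKM in total RNA and 579 and 831 FPKM in aggregates, a difference of 2.11 ± 0.23 (log2, SE, n = 2; limma adjusted p = 0.00332). The U1 sum was 277 and 218 FPKM in total RNA and 907 and 707 FPKM in aggregates, a difference of 1.70 ± 0.18 (log2, SE, n = 2; limma adjusted p = 0.00315). The 16 U1 genes other than RNVU1-14 and RNVU1-15 held 132 and 97 reads in total RNA and 22 and 17 reads in aggregates, a pooled rate ratio of 2.26 (exact 95% interval 1.57 to 3.19). In both families every aggregate library was above every total library.

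The U2 sum was 206 and 352 FPKM in total RNA and 330 and 346 FPKM in aggregates, where the groups overlapped (0.33 ± 0.26, log2, SE, n = 2; limma adjusted p = 0.338). The U5 sum was 168 and 131 FPKM in total RNA and 150.2 and 182 FPKM in aggregates, where the groups overlapped too (0.15 ± 0.16, log2, SE, n = 2; limma adjusted p = 0.468). Without aggregate replicate 1 the U5 sum passed the test as higher (0.29, log2; limma adjusted p = 0.0370). Pooled rate ratios of aggregates to total RNA were 1.21 (exact 95% interval 1.00 to 1.44) for U2 and 1.10 (0.777 to 1.52) for U5. These intervals cover counting error only and set no bound on an increase. Without total replicate 2 the U2 sum differed by 0.71 (log2). The U6 sum had 60 and 65 reads in total RNA and 7 and 11 reads in aggregates and was not tested. Its pooled rate ratio was 1.92 (exact 95% interval 1.10 to 3.15), and no U6 gene had more than 19 reads in any library.

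Of the 5 U5 genes, which encode variants of the same snRNA, 1 had nearly all of its reads in total RNA. RNU5D-1, singled out after its values were seen, had 131 and 89 reads in total RNA (82.5 and 55.6 FPKM) and 0 and 1 reads in aggregates (0 and 9.81 FPKM), a pooled rate ratio of 0.0605 (exact 95% interval 0.00152 to 0.340). RNU5E-1 had 73 and 64 reads in total RNA and 6 and 12 in aggregates (ratio 1.75, 1.01 to 2.87). RNU5F-1 had 53 and 48 reads in total RNA and 11 and 5 in aggregates (ratio 2.11, 1.16 to 3.59). RNU5A-1 had 8, 8, 3 and 0 reads and RNU5B-1 had 5, 4, 1 and 1. Without RNU5D-1 the other 4 U5 genes had 139 and 124 reads in total RNA and 21 and 18 in aggregates, a pooled ratio of 1.97 (1.37 to 2.77). Leaving out a gene seen to be low in aggregates raises this ratio by construction (1.10 with all 5), so it is no separate result. None of the 5 had reads enough for the test, and these ratios pool 2 libraries per group.

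Over all 25 genes with reads that were not tested, the pooled rate ratio was 1.58 (exact 95% interval 1.27 to 1.94), on 844 reads in total RNA and 100 in aggregates. Besides the U5 genes, RNVU1-8 had 59 and 40 reads in total RNA and 6 and 5 in aggregates, RNVU1-6 had 18, 12, 3 and 2 in the same order, and RNVU1-3 had 12, 11, 1 and 3. RNU1-13P and RNU6-45P, with the pseudogene names of highest read numbers after RNU2-2P, had 13, 16, 6 and 3 reads and 19, 18, 6 and 1 reads. With a filter of at least 1 FPKM in 2 libraries, under which 46.2% of 26 snRNA genes and 41.9% of all genes passed, 8 of the 25 were called, 6 higher and 2 lower, each on 5 to 40 reads over the 4 libraries. The 2 lower ones, RNU6-31P and RNU6-59P, named after their values were seen, had 5 and 8 reads in total RNA and 0 in aggregates.

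U snRNA reads were also divided by family, again without the copies listed at 0. U4 made up 15.2% and 17.6% of U snRNA reads in total RNA and 25.8% and 35.3% in aggregates. U2 made up 30.8% and 45.1% in total RNA and 19.9% in both aggregate libraries, and U5 went from 15.5% and 10.4% to 5.59% and 6.51%. U1 overlapped, with 35.1% and 23.7% in total RNA and 46.8% and 34.6% in aggregates, as did U6, with 3.44% and 3.16% against 1.86% and 3.77%. With 2 libraries per group an exact permutation test of such shares cannot go below p = 0.333, so these are given without one.

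Other short genes were mostly higher in aggregates too. Of 69 other tested genes under 300 bases, 63 were higher in aggregates and 1 was lower, with a median difference of 4.10 (log2); small nucleolar RNA genes, which guide modification of ribosomal RNA, had 55 of 57 higher and a median of 4.48, and 55 of them were among the 69. Protein-coding genes had a median of 0.00, and over all genes tested 26.3% were higher and 26% lower. A short gene can reach the read filter through the aggregates alone, so these counts and medians are no summary of all short genes. When the trend of the difference with transcript length was taken out of each library, RNU4-1 still passed (0.65 ± 0.13, log2, SE; limma adjusted p = 0.0132), while RNU4-2 (0.01), RNVU1-14 (0.13) and RNVU1-15 (0.20) did not. The trend was fitted on the genes that passed the read filter, which RNU4-1 reached only through the aggregates (7.22 expected reads from total RNA). On that scale RNU2-2P was lower in aggregates (-1.14, limma adjusted p = 0.0332), as were the U2 family sum (-1.09, adjusted p = 0.0383) and the U5 family sum (-1.89, adjusted p = 0.00162). The U1 and U4 sums (0.09 and 0.31) did not pass. Short genes that entered through the aggregates alone can raise the trend, so these lower calls hold only relative to it.

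**Figure D3:**
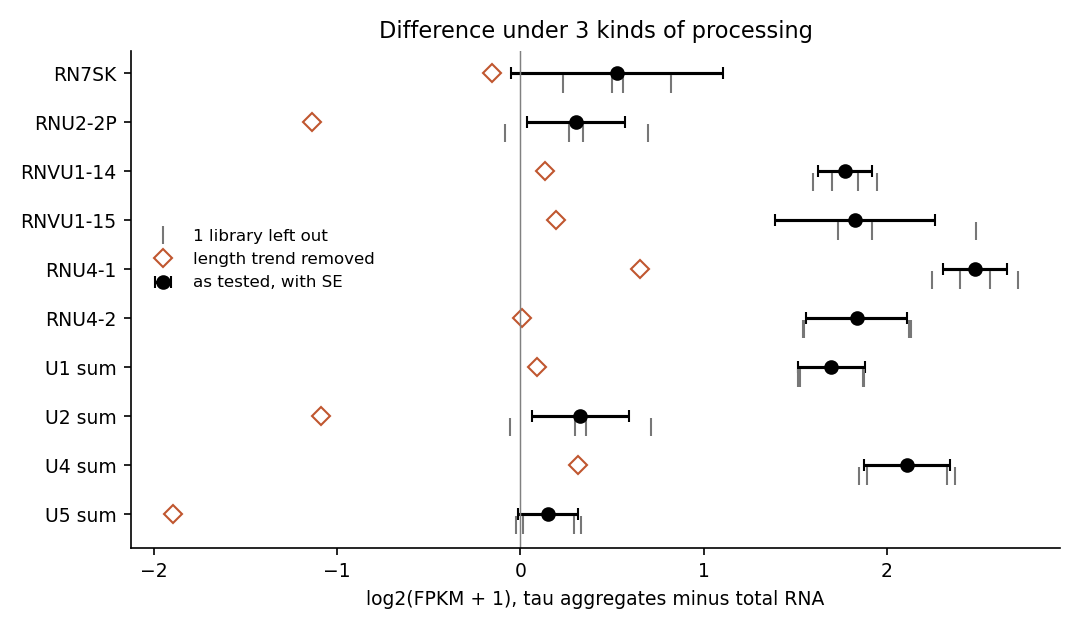
Difference between tau aggregates and total RNA on the log2(FPKM + 1) scale for 6 snRNA genes and 4 family sums. Black points with bars are the tested values ± SE, grey ticks leave out 1 of the 4 libraries, and open diamonds have the trend with transcript length removed. RNVU1-14, RNVU1-15, RNU4-2 and the U1 and U4 sums move from between 1.70 and 2.11 to between 0.01 and 0.31 on removal of the trend, and the U2 and U5 sums fall below 0.

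The snRNAs of the minor spliceosome, which splices a rare class of introns, are given for comparison. RNU11 went from 117 and 124 FPKM in total RNA to 754 and 790 FPKM in aggregates (2.67 ± 0.09, log2, SE, n = 2; limma adjusted p = 0.00154). RNU6ATAC went from 31.3 and 56.4 FPKM to 841 and 1536 FPKM (4.72 ± 0.39, adjusted p = 0.00221), and RNU12 from 79.4 and 212 FPKM to 337 and 463 FPKM (1.60 ± 0.48, adjusted p = 0.0448). RNU6ATAC reached the read filter only through the aggregates, since total RNA alone gives it 4.85 expected reads. RNU4ATAC, with 37, 50, 15 and 12 reads, was not tested. The difference between the 2 classes was not tested.

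Nuclear-retained long noncoding RNAs were among the transcripts that moved beside the U1 and U4 genes. The 5 listed summed to 1103 and 1166 FPKM in total RNA and 2936 and 2453 FPKM in aggregates. Of the 5, 4 (NEAT1, KCNQ1OT1, PVT1 and FTX) were higher in both aggregate libraries than in either total library, as were 41.1% of all genes tested. NEAT1, the scaffold of paraspeckles, went from 221 and 231 FPKM to 2288 and 1812 FPKM, while MALAT1, a speckle RNA, went from 866 and 919 FPKM to 603 and 591 FPKM. The part of nuclear RNA as a whole in the snRNA values was not tested.

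The mRNAs of the proteins that build, export and carry snRNAs were more often lower than higher in aggregates. Of 99 listed genes 87 were tested, and 7 were higher and 41 lower in aggregates, with a median of -0.36 (log2), beside 52.3% of all genes passing. The count fell when either total library was left out, and so did the count over all genes tested. The Sm proteins form the ring around U1, U2, U4 and U5, and 7 of 7 tested Sm mRNAs were lower. SNRPE, for example, went from 57.6 and 59.2 FPKM to 18.3 and 11.7 FPKM (-1.92 ± 0.21, log2, SE, n = 2; limma adjusted p = 0.00334). Of the mRNAs for the 3 proteins proper to U1, SNRPC (-1.17) and SNRPA (-0.76) were lower and SNRNP70 did not pass. In the U2 list 9 of 12 were lower, among them SNRPB2 (-2.01), SF3B6 (-1.98) and SF3B1 (-1.34), and SF3A2 was higher (0.34).

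In some lists the share of lower or higher calls was close to that over all genes (26% lower, 26.3% higher) or under it. In the tri-particle list of U4, U5 and U6 proteins 4 of 16 were lower, among them SNU13 (-0.78), which binds U4, and PRPF4 (-0.64), and 2 were higher (PRPF6, 0.54, and CD2BP2, 0.41). Of the LSm ring, which holds the end of U6, 5 of 7 were lower, with LSM5 at -2.15 and LSM3 at -1.82. Among 18 tested genes for snRNA transcription and 3′ end formation, SNAPC4 (0.79), a subunit of the factor that starts snRNA transcription, and INTS1 (0.74), the largest subunit of the Integrator complex, were higher and 4 were lower, INTS8 (-1.02) among them. Among 24 tested genes for export, assembly and maturation 10 were lower, among them the export receptor XPO1 (-1.79) and the Cajal body protein COIL (-0.83), and GEMIN4 (0.46) and MEPCE (0.30) were higher. LARP7, a protein of the 7SK particle, was lower (-1.25). The call of MEPCE, the 7SK capping enzyme (limma adjusted p = 0.0454), was lost with the replicate number as a block (0.0825) and with either other filter (0.0518 and 0.0569). With no filter the calls of SNRPA, SF3A2, PRPF6 and COIL were lost too (limma adjusted p = 0.0525, 0.0502, 0.0845 and 0.0587). Every higher call named here was lost without total replicate 2. Those of SNRPA, PRPF4, COIL and MEPCE, among others, were lost without either total library. Apart from SNRNP70, the mRNAs named here passed the limma test at an adjusted p under 0.05 with values on the log2(FPKM + 1) scale.

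**Figure D4:**
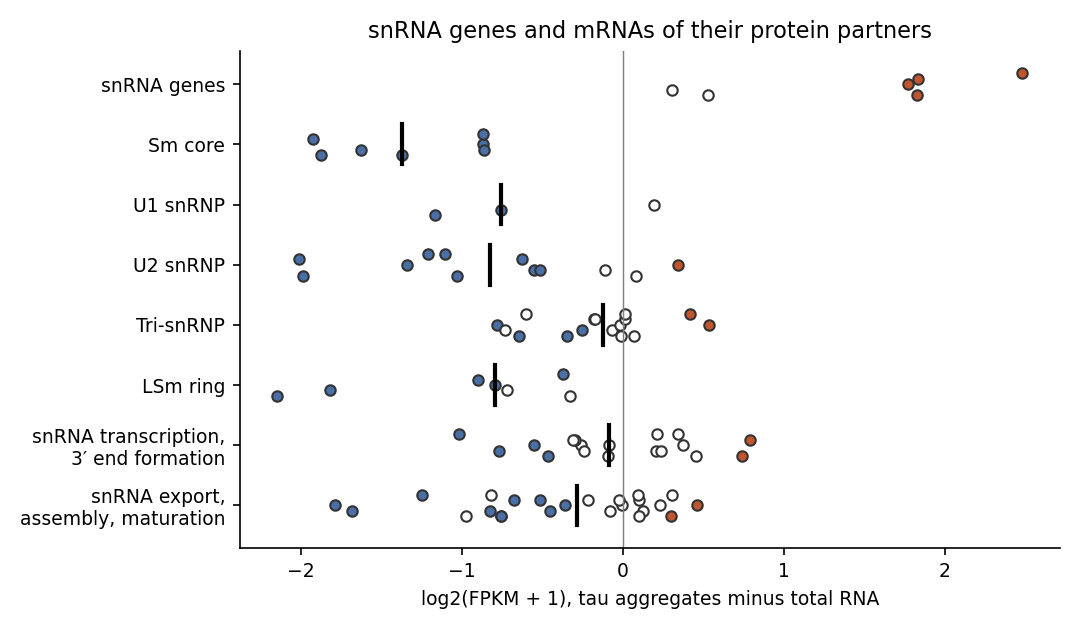
Difference between tau aggregates and total RNA on the log2(FPKM + 1) scale for the 6 tested snRNA genes and for the mRNAs of 7 lists of proteins that act on snRNAs, 1 point per gene. Filled points passed the test (orange higher, blue lower), open points did not, and black lines are medians of the mRNA lists. The 6 snRNA genes lie between 0.30 and 2.48, and all 7 Sm core mRNAs lie on the lower side with a median of -1.37.

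In mouse brain, 7SK was lower in the tau-12 immunoprecipitate than in total RNA in both genotypes, and no snRNA gene passed as higher in limma (0 also at an unadjusted p under 0.05). The mouse files give gene IDs without types. The rule set by gene names found 9 genes, of which 4 had reads and 1, Rnu2-10, had enough for the test, passing in neither genotype (WT adjusted p = 0.0542, or 0.0245 with the replicate number as a block). A wider set, chosen after the data had been seen, took the genes that RefSeq types as snRNA in GRCm38.p6 (918 genes, 409 with reads, 13 tested). It includes Rn7sk and many genes with a Gm name only, whose family no table used here gives and which may include genes of the minor spliceosome. In P301L mice 3 of the 13 were lower in the immunoprecipitate and 0 higher, where 56.6% of all 13012 genes tested passed (35.5% higher and 21.1% lower). In WT mice 4 were lower and 0 higher, where 38.6% of all genes passed (19.8% higher and 18.8% lower). Brain markers were present, with all 13 genes for neurons, astrocytes, oligodendrocytes and microglia found at 5.07 FPKM or more in the total libraries. Their sums moved with the fractions and genotypes compared. The astrocyte sum was 417 and 401 FPKM in WT total RNA and 724 and 607 FPKM in the WT immunoprecipitate, and 719 and 725 FPKM against 817 and 907 FPKM in P301L mice. The neuron sum was 966 and 877 FPKM in WT and 640.3 and 654 FPKM in P301L total RNA, and 881 and 822 FPKM in the WT and 471 and 532 FPKM in the P301L immunoprecipitate. The microglia sum was 28.1 and 27.9 FPKM in WT total RNA and 16.7 and 12.9 FPKM in the WT immunoprecipitate, and 35.7 and 46.5 FPKM against 23.3 and 34.4 FPKM in P301L mice, while that of oligodendrocytes overlapped between total RNA and immunoprecipitate in both genotypes. The part of these sums in the snRNA values was not tested.

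Rn7sk stood at 25600 and 42581 FPKM in WT total RNA, at 9975 and 14431 FPKM in the WT sarkosyl fraction and at 1455 and 2831 FPKM in the WT immunoprecipitate. In P301L mice it stood at 44872 and 52753 FPKM in total RNA, at 14445 and 7687 FPKM in the sarkosyl fraction and at 2018 and 2803 FPKM in the immunoprecipitate. The 3 fractions of a genotype did not overlap, and total RNA was the highest and the immunoprecipitate the lowest in both. The immunoprecipitate differed from total RNA by -4.02 ± 0.65 in WT mice (log2, SE, n = 2; limma adjusted p = 0.000649) and by -4.35 ± 0.65 in P301L mice (adjusted p = 0.000309). The difference between genotypes was -0.33 ± 0.92 (adjusted p = 0.827). In both genotypes the call was lost with no read filter (limma adjusted p = 0.235 in WT and 0.152 in P301L mice). In WT mice it was also lost with quantile normalization (-1.55, adjusted p = 0.0554).

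Gm25541 and Gm24967 were lower too. Gm25541 stood at 32.0 and 186 FPKM in WT total RNA and at 0 and 1.43 FPKM in the WT immunoprecipitate, and at 166 and 35.5 FPKM against 6.36 and 1.51 FPKM in P301L mice (-5.66 ± 0.84 and -4.18 ± 0.84, log2, SE, n = 2; limma adjusted p = 0.000373 and 0.00160). These immunoprecipitate values rest on 0, 1, 2 and 2 reads on an inferred length of 126 bases. Gm24967 went from 19.4 and 192 FPKM to 2.46 and 0 FPKM in WT mice and from 153 and 41.8 FPKM to 0 and 2.68 FPKM in P301L mice. It differed by -5.08 ± 0.97 in WT mice and by -5.41 ± 0.97 in P301L mice (limma adjusted p = 0.00180 and 0.000808). Its immunoprecipitate values rest on 2 and 0 reads in WT and 0 and 3 reads in P301L mice. In total RNA it had 17 and 94 reads in WT and 73 and 34 reads in P301L mice. Gm25541 and Gm24967 both reached the read filter mainly through the total libraries. The counts of lower calls in mouse brain are therefore no summary of the mouse snRNA genes. Gm24265 went from 53.8 and 783 FPKM to 21.5 and 43.4 FPKM in WT mice and from 373 and 134 FPKM to 48.3 and 104 FPKM in P301L mice. It passed in WT mice (-2.71 ± 0.93, adjusted p = 0.0376) and not in P301L mice (-1.64 ± 0.93, adjusted p = 0.151), with a difference between genotypes of 1.07 ± 1.31 (adjusted p = 0.596). The WT call was lost without either WT immunoprecipitate library, without WT total replicate 2 and without P301L sarkosyl replicate 2 (adjusted p = 0.180, 0.0710, 0.369 and 0.0501).

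The other 9 tested mouse genes, Rnu2-10 among them, all have an inferred length of 191 bases, the length of RNU2-1 and RNU2-2P in the human table. Their reads, summed, made up 159 and 2029 RPM in WT total RNA and 1622 and 533 in P301L total RNA. They made up 75.8 and 152 in the WT and 267 and 153 in the P301L sarkosyl fraction. In the immunoprecipitates they made up 82.1 and 221 in WT mice and 5599 and 1114 in P301L mice. The WT total libraries differed 12.8-fold from each other, and the P301L immunoprecipitates differed widely too.

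**Figure D5:**
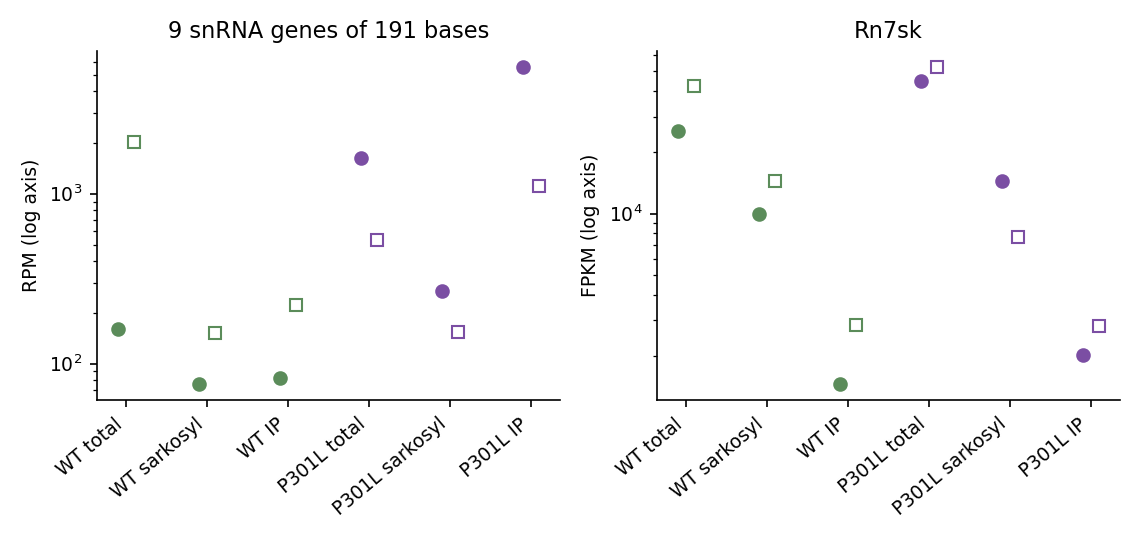
RPM summed over 9 mouse snRNA genes of 191 bases (left) and FPKM of Rn7sk (right), both on log axes, in the 12 mouse brain libraries, with WT in green, P301L in purple, replicate 1 as filled circles and replicate 2 as open squares. Rn7sk steps down from total RNA to the sarkosyl fraction to the immunoprecipitate in both genotypes, while the 9 genes range from 159 to 2029 within WT total RNA alone and are highest in P301L immunoprecipitate replicate 1, at 5599.

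None of the 9 passed, with limma or with voom (at an unadjusted p under 0.05 in limma, 0 in P301L and 2 in WT mice). In P301L mice the immunoprecipitate differed from total RNA by -1.22 to 1.70 (log2; limma adjusted p from 0.188 to 1.00), and in WT mice by -2.53 to -1.88 (adjusted p from 0.0542 to 0.178). The difference between genotypes was 1.02 to 3.65 for the 9 genes, on the side of P301L mice in each (adjusted p from 0.121 to 0.661). Of the 13 tested genes 5 had an unadjusted p under 0.05 for this difference and 0 passed after adjustment by limma, where 10.4% of all genes did. Without WT total replicate 1, in which the 9 genes were low, they differed by -4.45 to -3.70 (log2) between WT immunoprecipitate and total RNA. Without WT total replicate 2, Gm26316 and Gm25202 turned to 0.35 and 0.041. The WT differences thus depended on which WT total library was kept. P301L immunoprecipitate replicate 1, with the highest sum, is also the shallowest mouse library, with 2.49 M reads.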

How the data were processed

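The submitters' processing notes name STAR 2.6.0c and the builds hg38 and GRCm38.p6. The read counter, the annotation release and what was done with reads of several alignments: not given in the sources used here. In the HEK293 files the authors deposited FPKM scaled by the longest transcript's length. The mouse files state no unit, and what the authors deposited there has the properties of FPKM. The other column used is the longest transcript length, deposited by the authors for the HEK293 files only. Mouse lengths were inferred as the smallest whole number of bases that made all values of a gene whole reads. Such a length can be too short where a gene has few reads. Whole reads were recovered from the FPKM steps (100.0% of HEK293 values and over 99.9% of mouse values within 0.05 of a whole number). The mouse share is no check of the recovery, since mouse lengths were chosen to give whole reads. The recovered reads served for depth, the read filter, rate ratios with exact Poisson intervals and a voom alternative, which called 6070 HEK293 genes against 5340. Mouse libraries held 2.49 M to 10.5 M reads.

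The test was limma 3.58.1 (R 4.3.3) on log2(FPKM + 1), which understates changes of low genes, with its prior variance following the mean. HEK293 libraries made a fit of their own (residual degrees of freedom: 2), as did the 12 mouse libraries (6). Calls are Benjamini-Hochberg adjusted p under 0.05 over all genes tested. Scripts were tested on simulated data. HEK293 replicates were separate dishes, per the labels; nothing says so for mouse replicates, whose p-values measure only the spread between these samples. Members and lists were chosen with earlier results of these data known. Named genes were all snRNA genes without pseudogene names, the family sums, and up to 4 genes per pathway list and direction with the largest change among called genes whose groups did not overlap, of which the text names a part. RNU1-13P, RNU6-45P and SNRNP70 were named after their values were seen. Mouse IDs were matched to symbols for 45092 of 45093 genes. The 9 mitochondrial mRNAs on the compartment list were not analysed here. Sequences were not used here.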

Additional observations from a re-analysis of the deposited data

How the results depend on the processing

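Filters changed the counts most. With at least 1 FPKM in 2 libraries as the filter, 12 of 26 HEK293 snRNA genes were called (10 higher; 46.2%, beside 41.9% of all genes), and with no filter 7 of 31 (5 higher; 22.6%, beside 25.3%), against 4 of 6; with the length trend removed 2 were called (1 higher), RN7SK turned to -0.15 (-0.12 in the table of family sums), RNU2-2P to -1.14, the U2 family sum to -1.09 and the U5 family sum to -1.89. Leaving out 1 HEK293 library gave 3 to 4 called genes, 2 to 3 called families and 19 to 70 called pathway mRNAs. Over the libraries left out, RNU2-2P ranged from -0.086 to 0.69 and the U2 family sum from -0.057 to 0.71, lowest without total replicate 1, and the U5 family sum from -0.025 to 0.33, lowest without total replicate 2. RN7SK passed as higher only with voom (0.52), and was 0 by construction with quantile normalization. Pseudocounts of 0.1 and 5, median centring, quantile normalization and rescaling without small RNA genes kept the 4 HEK293 calls. In mouse brain the filter of 1 FPKM called 45 of 270 RefSeq snRNA genes in P301L (19 higher; 16.7%, beside 41% of all genes) and 37 in WT mice (21 higher; 13.7%, beside 26.3%), and no filter 26 and 28 of 409 (8 and 15 higher; 6.36% and 6.85%, beside 22.3% and 13.4%); the named set gave 1 in P301L mice with 1 FPKM. Quantile normalization gave 5 in P301L mice, 2 of them higher (Gm25939 and Gm23971). Leaving out 1 mouse library gave 1 to 4 in P301L and 1 to 13 in WT mice, and 0 to 1 in the named set of WT mice; without P301L total replicate 1 there was 1 in P301L and 2 in WT mice. Gm25360 in P301L mice, at 0.00, turned to -0.17 with median centring and with rescaling, to -0.12 with voom, and ranged from -0.97 to 0.98 over the libraries left out (-0.97 without P301L total replicate 2, -0.77 without immunoprecipitate replicate 1). In WT mice Gm26316 ranged from -4.11 to 0.35 and Gm25202 from -3.95 to 0.041, lowest without WT total replicate 1 and highest without WT total replicate 2. The cause of these shifts was not tested. Same-numbered HEK293 libraries did not deviate together (correlation 0.08), and mouse groups did so in part: the 3 WT fractions correlated at 0.30 (total and sarkosyl), 0.25 (total and immunoprecipitate) and 0.18 (sarkosyl and immunoprecipitate), and P301L total RNA at 0.23 with the immunoprecipitate and -0.22 with the sarkosyl fraction. No label ties the numbers to a mouse, so they were not taken to pair samples, and whether WT fractions share mice was not tested; with the replicate number as a block 4 HEK293 snRNA genes, 2 families and 50 pathway mRNAs were called, 1 named gene in WT mice (Rnu2-10, adjusted p = 0.0245, by limma), and 3 and 5 RefSeq snRNA genes in P301L and WT mice. Alternatives on the mouse RefSeq set were chosen after seeing the data. Depth limits the aggregates: 3 reads on a gene of 107 bases are 31.9 FPKM in aggregate replicate 2.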
